A study of Mus musculus with 6 samples.

Results

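The regions described here are stretches of H3K9me3 that were already marked in control mouse neural stem cells (NSCs) and that covered more bases after PHF8 knockdown. NSCs of the cerebral cortex, derived per the study's methods from mid-gestation C57BL/6J mouse embryos, carried either a scramble lentiviral shRNA (shCTR) or one directed at PHF8 (shPHF8). H3K9me3-bound DNA was immunoprecipitated and sequenced (ChIP-seq). Each condition had 2 ChIP libraries, used here, and 1 input, left aside. The sources used here do not say whether the 2 libraries of a condition came from separate cultures or embryos, so the spread between them may be technical. The authors deposited 1 list of broad peaks per ChIP library, which gives positions on mm10 in steps of 200 bp windows and no height, score or p-value. The lists hold no expression, so neither the labelled cell type nor the knockdown itself was checked.

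Peaks of the 4 ChIP libraries on chromosomes 1 to 19 were merged where they overlapped or touched, which gave 70705 regions, and 26200 of these were under 20000 bp and held a peak of all 4 libraries. A shared region was counted as spreading when the lower covered length of the 2 shPHF8 libraries was at least 1.5 times the higher covered length of the 2 shCTR libraries. That rule kept 2850 regions (10.9% of the shared regions), while 168 (0.641%) met the opposite rule with the conditions exchanged. The regions were thus selected on their covered bases, and the values of covered bases below are given as a description, with no test. Both shPHF8 libraries covered more bases than both shCTR libraries in 38.6% of the shared regions, and fewer in 5.04%.

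H3K9me3 is a hallmark of constitutive heterochromatin. It is laid down by methyltransferases such as Suv39h1 and Setdb1, and it is bound by HP1 proteins, which recruit further methyltransferase so that the mark can extend from nucleosome to nucleosome along the fibre. In neural cells it silences repeats, germline genes and genes of other lineages. PHF8 is a histone demethylase of the KDM7 family that binds H3K4me3 at active promoters and removes methyl groups from H3K9me2, H3K9me1 and H4K20me1. A broad peak caller joins neighbouring windows with more reads than background into islands, so a wider island may hold more marked nucleosomes per cell or more cells that carry the mark there, and these cannot be told apart from the lists.

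To show what lies at a moving boundary, the reference sequence is given across an outer edge of the shCTR peaks in 6 of the 7 spreading regions with the highest ratio, 100 bases on each side. In the remaining one, chr3:59430001-59438200, no bases next to an outer shCTR edge were covered in both shPHF8 libraries. Capitals mark the bases covered by both shPHF8 libraries and by neither shCTR library, and lower case marks the bases already covered in shCTR. All are plus strand, 5′ to 3′, from RefSeq GRCm38.p6.
chr5:133522901-133523100 (noncoding gene Gm17979): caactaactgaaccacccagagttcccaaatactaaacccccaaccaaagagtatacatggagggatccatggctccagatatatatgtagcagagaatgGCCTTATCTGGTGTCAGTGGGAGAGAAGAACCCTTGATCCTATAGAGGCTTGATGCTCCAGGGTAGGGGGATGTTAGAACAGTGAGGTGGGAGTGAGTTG
chr2:68459701-68459900 (Stk39 intron): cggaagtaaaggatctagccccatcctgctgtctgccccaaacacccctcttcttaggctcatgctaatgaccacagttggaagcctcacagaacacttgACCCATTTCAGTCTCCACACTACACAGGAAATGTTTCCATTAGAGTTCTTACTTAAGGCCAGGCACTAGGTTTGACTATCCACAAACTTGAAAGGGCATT
chr16:92774101-92774300 (Runx1 intron): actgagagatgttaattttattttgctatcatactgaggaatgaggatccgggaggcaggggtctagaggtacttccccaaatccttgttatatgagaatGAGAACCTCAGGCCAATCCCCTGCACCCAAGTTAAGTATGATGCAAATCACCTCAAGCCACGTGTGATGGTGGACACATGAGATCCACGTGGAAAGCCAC
chr10:24995901-24996100 (intergenic, nearest coding start Arg1): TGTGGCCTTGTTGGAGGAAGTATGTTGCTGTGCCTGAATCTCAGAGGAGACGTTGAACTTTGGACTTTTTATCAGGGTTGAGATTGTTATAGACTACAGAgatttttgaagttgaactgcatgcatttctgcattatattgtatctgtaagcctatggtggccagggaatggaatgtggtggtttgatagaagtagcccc
chr6:97746701-97746900 (intergenic, nearest coding start Mitf): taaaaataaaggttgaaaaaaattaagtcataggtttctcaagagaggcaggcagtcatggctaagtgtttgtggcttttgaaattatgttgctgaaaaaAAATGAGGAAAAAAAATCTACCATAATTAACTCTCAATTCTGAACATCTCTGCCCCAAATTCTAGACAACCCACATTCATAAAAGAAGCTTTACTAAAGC
chr7:119008701-119008900 (intergenic, nearest coding start Gprc5b): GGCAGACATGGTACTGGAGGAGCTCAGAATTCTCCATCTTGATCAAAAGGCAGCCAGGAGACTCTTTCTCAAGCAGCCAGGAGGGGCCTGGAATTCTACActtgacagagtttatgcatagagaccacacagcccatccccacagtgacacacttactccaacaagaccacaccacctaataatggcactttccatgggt
In these 6 windows the GC content was between 41 and 52% on the shCTR side of the edge in 5 of them, and it was 33% on both sides of the edge near Mitf. The newly covered side had a higher GC content in 4 windows (by 1 base in the one near Arg1), a lower one at Stk39 and the same one near Mitf, so these boundaries did not share a step in base composition. CG dinucleotides were rare, with 0 to 2 in each run of 100 bases. Between 0 and 88% of a run was soft-masked, that is, marked in the reference as an interspersed or simple repeat.

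Covered bases in the spreading regions were as follows. The median region held 2000 covered bp in each of the shCTR libraries, against 5400 bp in the first and 4800 bp in the second shPHF8 library. The quartiles were 1400 and 3000 bp in both shCTR libraries, 4000 and 7800 bp for the first shPHF8 library, and 3600 and 6800 bp for the second. In sum over the 2850 regions the shCTR libraries covered 6.95 and 6.98 Mb, and the shPHF8 libraries 17.6 and 15.8 Mb. The ratio of the summed shPHF8 to the summed shCTR length was therefore 2.39 in the spreading regions. The 23182 shared regions that met neither rule started wider, with a median of 3200 bp in both shCTR libraries, and reached 4400 and 3600 bp in the shPHF8 libraries, a summed ratio of 1.21.

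**Figure D1:**
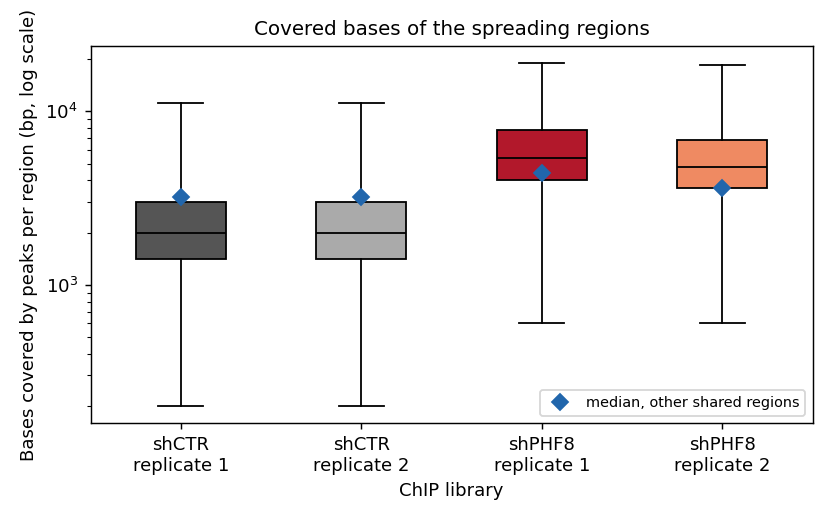
Bases covered by peaks per spreading region (y axis, bp, log scale) in each of the 4 ChIP libraries (x axis). Boxes give the quartiles and the line the median of 2850 regions, whiskers reach the lowest and highest region, and blue diamonds give the median of the 23182 other shared regions; the medians of the spreading regions were 2000 bp in both shCTR libraries and 5400 and 4800 bp in the shPHF8 libraries.

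The shPHF8 lists were wider genome-wide. On chromosomes 1 to 19 they covered 219 and 197 Mb in replicates 1 and 2, against 156 and 159 Mb in shCTR, a ratio of 1.32, and the median peak was 4200 and 2800 bp against 2400 bp in both shCTR libraries. When each library was scaled to the same total of covered bases, 976 regions still met the rule and 737 met the opposite rule, so much of the difference between the 2850 and the 168 regions moved with that total. The lists carry neither depth nor enrichment, and the part of either in the wider lists was not tested. By the mapped reads that the study lists per library, shPHF8 replicate 1 lay between the 2 shCTR libraries, and shPHF8 replicate 2 lay below both. With 1 library left out of the rule, between 4598 (without shPHF8 replicate 1) and 8152 (without shPHF8 replicate 2) regions met it. Fewer libraries then set both the ratio and which regions count as shared. In the spreading regions, replicate 2 was the lower of the 2 shPHF8 libraries in 1755 regions (61.6%), replicate 1 was the lower in 862, and they were equal in 233.

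The ratio of the lower shPHF8 to the higher shCTR length had a median of 1.77 (quartiles 1.59 and 2.10) and reached 5.71, while its median over all 26200 shared regions was 0.939. A ratio of 2 or more was found in 972 spreading regions (34.1%), of 3 or more in 164 and of 4 or more in 38. Many regions sat close to the threshold. Exactly 1.5 was found in 275 regions, 513 (18%) would not have met the rule with 1 window of 200 bp less in the lower shPHF8 library, and 643 further shared regions would have met it with 1 window more. Just inside lay chr1:12995001-13001200, 2351 bp from the Slco5a1 start, which covered 2000 and 1600 bp in shCTR and 3000 and 5000 bp in shPHF8. Of the same ratio were chr1:14063601-14066600, in which the libraries covered 1600, 1600, 3000 and 2400 bp, and chr1:24659401-24664800 near Lmbrd1, in which they covered 1800, 2400, 5400 and 3600 bp. Just outside were chr9:120238801-120258200 (10600, 10000, 18800 and 15800 bp in shCTR 1, shCTR 2, shPHF8 1 and shPHF8 2, ratio 1.49), and with the same rounded ratio chr9:122636801-122652200 (9800, 9400, 14600 and 15200 bp) and chr4:144653001-144667800 (7400, 9400, 14800 and 14000 bp). The 3 regions just outside were wider than the 3 just inside. In steps of 200 bp a ratio this close below 1.5 needs long covered lengths, so this is no trait of the regions.

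**Figure D2:**
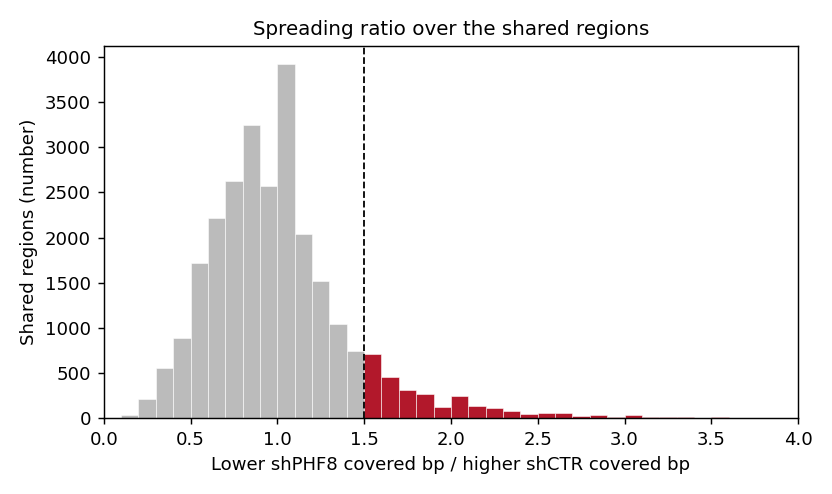
Number of shared regions (y axis) by the ratio of the lower shPHF8 to the higher shCTR covered length (x axis, bins of 0.1), with the 2850 spreading regions in red to the right of the dashed line at 1.5. The counts show no gap at the line, with 749 regions from 1.4 to 1.5 and 714 from 1.5 to 1.6. They do not fall evenly, with 126 regions from 1.9 to 2 and 241 from 2 to 2.1. The 38 regions with a ratio of 4 or more lie beyond the axis.

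Replicates of a condition also differed within single regions. The 2 shCTR libraries differed from each other by 1.5 times or more in 887 of the spreading regions, and the 2 shPHF8 libraries in 492. In 122 regions (4.28%, against 0.513% of the other shared regions) the shCTR libraries shared no covered base, and in 20 a shPHF8 library missed the shCTR peaks altogether. The gap between the conditions, from the higher shCTR to the lower shPHF8 length, had a median of 2000 bp and ranged from 200 to 11800 bp.

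The highest ratios were in introns of coding genes, in noncoding genes (here all annotated genes that are not protein-coding) and in intergenic DNA. At chr5:133517201-133527200, in the noncoding gene Gm17979, the peaks covered 1400 and 1200 bp in the shCTR libraries and 8000 and 8200 bp in the shPHF8 libraries, a ratio of 5.71. In an intron of Stk39, a kinase that controls ion cotransporters, chr2:68459201-68462800 covered 600 and 600 bp in shCTR and 3600 and 3400 bp in shPHF8. Both shCTR peaks sat at one end of this region, and 2800 bp were added on a single side. In an intron of Runx1, a transcription factor of blood formation, chr16:92766201-92779000 covered 1600 bp in both shCTR libraries and 10200 and 9000 bp in shPHF8. There the 2 shPHF8 libraries did not cover the same bases: replicate 1 had 2 peaks with a gap between them, replicate 2 had 1 peak that bridged the gap, and 4800 bp were added in both. The region chr3:59430001-59438200 in the noncoding gene Gm8276 covered 800 and 400 bp in shCTR and 8000 and 4200 bp in shPHF8, so its ratio of 5.25 came with shPHF8 replicates that themselves differed, and the peak of shPHF8 replicate 2 there ended short of the shCTR peaks.

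The other highest ratios lay between genes. The region chr10:24988401-24999600, 60917 bp from the start of Arg1, covered 1600 and 2000 bp in shCTR and 10600 and 10400 bp in shPHF8, and 6800 of its 7800 added bp were on the left. Near Mitf, the melanocyte transcription factor, chr6:97744601-97752400 had a ratio of 5.17 and gained its 4000 added bp on the right only. The regions chr7:119006801-119011200, 11590 bp from Gprc5b, and chr14:68999201-69006400, 22838 bp from Stc1, both had a ratio of 5.00. In the former 3000 bp were added by both shPHF8 libraries, but in the latter only 600 bp, because the 2 shPHF8 peaks extended to different sides. In all 8 regions the lower shPHF8 library lay above the higher shCTR library, as the rule requires.

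Ordered by the length gained, regions in Caln1, Cdh13 and Ano2 came first. In an intron of Caln1, which codes for a calcium-binding protein of neurons, chr5:130463001-130481400 covered 4200 and 4800 bp in shCTR and 16600 and 17400 bp in shPHF8, a gap of 11800 bp. Here 8600 of 10200 added bp lay inward, between shCTR peaks. In Cdh13, which codes for T-cadherin, chr8:118979401-118998000 covered 3000 and 3200 bp in shCTR and 13800 and 17400 bp in shPHF8. In Ano2, which codes for a calcium-activated chloride channel, chr6:125996001-126015400 covered 3600 and 2000 bp in shCTR and 17400 and 13600 bp in shPHF8, with all 10600 added bp on the right. Further regions of this kind lay near Zdhhc25, in Gm7093 and at Dmkn, with gaps of 9600, 9400 and 9000 bp.

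**Figure D3:**
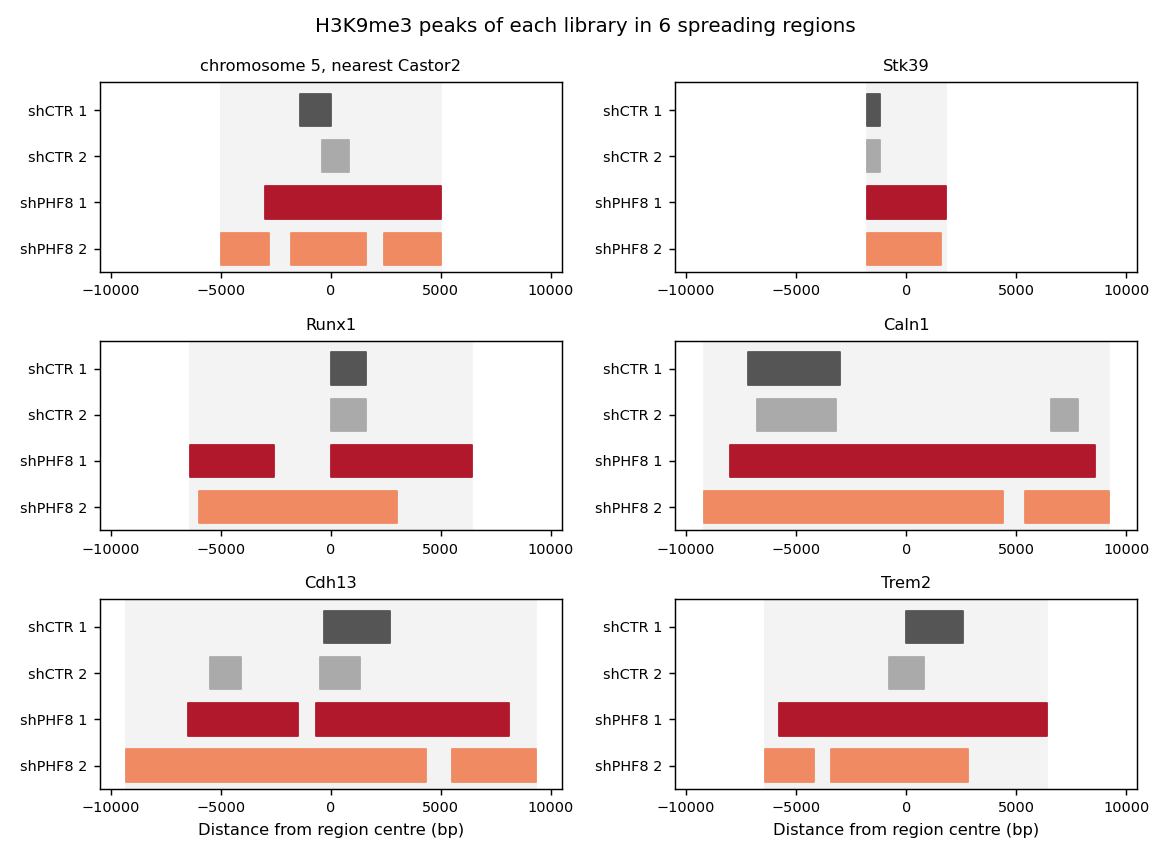
Peaks of shCTR replicates 1 and 2 (greys) and shPHF8 replicates 1 and 2 (reds) in 6 spreading regions, by distance from the centre of the region (x axis, bp), with the merged region shaded. In each panel the shPHF8 peaks run beyond the shCTR peaks on at least 1 side, each shCTR peak lies within a peak of both shPHF8 libraries, and at Runx1 shPHF8 replicate 1 reaches both ends of the region while replicate 2 stops short of the right end.

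The bases gained in both shPHF8 libraries lay mostly outside the outermost shCTR peaks, which is largely fixed by the layout of the regions. Only 19.5% of the spreading regions held more than 1 shCTR island, and a region with 1 island has no gap for bases to be gained inward. Bases covered by both shPHF8 libraries and by neither shCTR library, called added bases here, summed to 5.59 Mb, of which 41.9% lay left of the outermost shCTR peak, 43.1% right of it and 15% inward between shCTR peaks. In the other shared regions 27.5% of the added bases lay inward. Added bases lay on both sides in 1013 regions (35.5%), on 1 side in 1649 (57.9%, with 807 on the left only and 842 on the right only) and inward only in 128 (4.49%). A side that only 1 shPHF8 library extended counts here as not extended, so these shares depend on that definition. In 60 regions (2.11%) the 2 shPHF8 libraries shared no added base. Separate shCTR islands were joined by a single stretch covered in both shPHF8 libraries in 270 regions, which is 48.6% of the 555 spreading regions that held more than 1 shCTR island. In the other shared regions it was 32.2% of the 3281 that held more than 1. The rule asks for more shPHF8 bases, so the higher share in the spreading regions is in part fixed by the rule. The median region gained 1600 added bp and the most was 10600 bp.

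The replicates overlapped in where they extended. Outside the shCTR peaks, shPHF8 replicate 1 covered 9.02 Mb in the spreading regions, of which 61.9% was also covered in replicate 2, and replicate 2 covered 7.46 Mb, of which 74.9% was also covered in replicate 1. In the other shared regions these shares were 31.0 and 55.8%. The rule uses covered bases of both libraries, so a higher overlap is in part fixed by it and is given as a description. Of the bases of the shCTR islands in the spreading regions, 98.1% were covered by at least 1 shPHF8 library, against 91.0% in the other shared regions. This difference too is in part fixed by the rule, which asks for more shPHF8 than shCTR bases.

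The share of edges covered fell off gradually with distance from the shCTR edge. Over the 5700 outer shCTR edges of the spreading regions, the first 200 bp outside were covered in 78.0% of edges in shPHF8 replicate 1 and 71% in replicate 2. From 800 to 1000 bp outside, 51.5 and 44.2% were covered, and from 1800 to 2000 bp, 31.0 and 24.3%. In the other shared regions the first 200 bp were covered at 44.9 and 31.2% of edges and the window from 800 to 1000 bp at 19.5 and 10.1%. Both shPHF8 replicates showed this fall over edges, with replicate 1 above replicate 2 at each of these distances. At a single edge a window is either covered or not, so the fall reflects the spread of peak lengths. The rule asks for more shPHF8 bases, so the higher shares in the spreading regions are in part fixed by it and are a description.

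**Figure D4:**
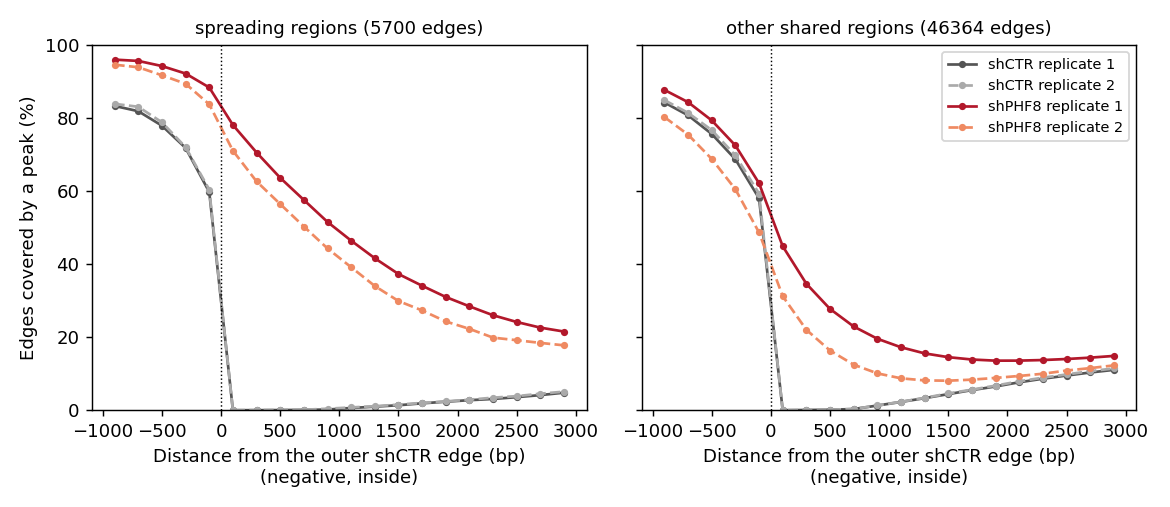
Percent of outer shCTR edges covered by a peak of each library (y axis) by distance from the edge (x axis, bp, windows of 200 bp, negative inside), for the spreading regions (left, 5700 edges) and the other shared regions (right, 46364 edges). In the spreading regions shPHF8 coverage declines from 78.0 and 71% in the first window outside to 31.0 and 24.3% from 1800 to 2000 bp. The shCTR coverage outside the edge comes from neighbouring peaks. The higher shPHF8 coverage in the left panel is in part fixed by the rule.

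Narrow control regions met the rule more often. When the shared regions were grouped by the higher of the 2 shCTR lengths, 50.6% of those up to 1000 bp spread (121 of 239), 28.3% of those above 1000 and up to 2000 bp, 13.7% above 2000 and up to 3000 bp, 8.05% above 3000 and up to 4000 bp, 5.54% above 4000 and up to 6000 bp and 2.44% above 6000 bp. The rule is a ratio, so a wide control region needs more further bases to meet it, and these shares are a description. The limit on width left out few regions, as 2919 met the rule without it, against 2850.

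Location was not used by the rule, and here the spreading regions lay further from coding genes than the other shared regions. Each region took the first that applied of a protein-coding start site within 1 kb, a coding exon, a coding intron, a noncoding gene and intergenic DNA, from GENCODE M21. Coding exons were all exons of protein-coding genes, untranslated parts included. Noncoding genes were all annotated genes of any other type, pseudogenes included. Intergenic DNA held 1244 spreading regions (43.6%, 95% Wilson interval 41.8 to 45.5) and 38.9% of the other shared regions (38.2 to 39.5). Coding introns held 20.9% (19.4 to 22.4) against 26% (25.4 to 26.6), noncoding genes 14.1% (12.9 to 15.4) against 11.7% (11.3 to 12.2), and coding exons 15.4% (14.1 to 16.7) against 15.7% (15.3 to 16.2). A coding start site lay within 1 kb in 171 spreading regions, which is 6.00% (5.19 to 6.93) against 7.66% (7.33 to 8.01). The intervals of the introns, noncoding genes, intergenic DNA and start sites did not overlap, and those of the coding exons did. These intervals cover counting error over regions only, and neighbouring regions are not independent.

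**Figure D5:**
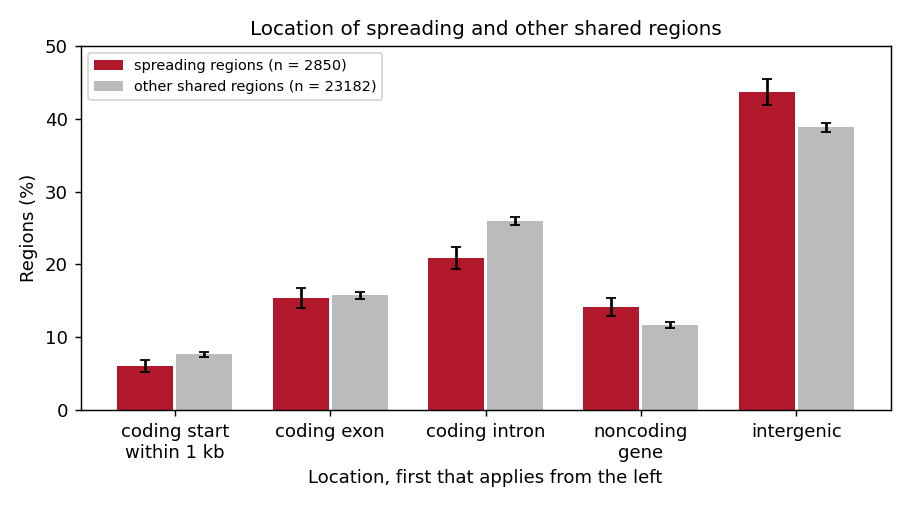
Percent of regions (y axis) in each location class (x axis) for the 2850 spreading regions (red) and the 23182 other shared regions (grey), with 95% Wilson intervals as error bars. Intergenic DNA holds 43.6% of the spreading and 38.9% of the other regions, and coding introns 20.9 and 26%.

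The median distance to the nearest coding start site was 40936 bp for the spreading regions and 32928 bp for the other shared regions. Since narrow regions spread more often, the location was also read within each class of control width. The intergenic share was higher in the spreading regions in every one of the 6 classes, for example 44.8 against 40.6% from 1000 to 2000 bp and 42.9 against 33.7% above 6000 bp. The share near a coding start site did not hold the same order: it was lower in the spreading regions from 1000 to 2000 bp (4.82 against 5.60%) and higher from 2000 to 3000 bp (6.70 against 5.27%). The 168 regions that met the opposite rule lay in coding introns in 35.7% (28.9 to 43.2) and in intergenic DNA in 24.4% (18.5 to 31.4), below the intergenic share of the spreading regions.

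The edges moved toward and away from genes alike. Among 1666 spreading regions outside coding genes, 760 had more added bases on the side of the nearest coding start and 746 on the far side, and 50.2% of the added bases lay toward it. Among 949 regions inside a single coding gene, 427 extended more toward its start and 424 more away, with 50.5% of the bases toward it.

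Sequence composition changed little across the boundary. The median GC content was 45.3% in the shCTR part of the spreading regions, 44.8% in the added bases and 43.3% in unmarked flanks of 1000 bp. CG dinucleotides stood at a median of 10.0 per kb in the shCTR part and 9.67 per kb in the added bases. The soft-masked share was 29.5% in the shCTR part and 26.6% in the added bases of the 2790 regions that had any. Added bases were less masked than the shCTR part of the same region in 55.1% of these regions, lower in GC in 56.4% and lower in CG in 53.1%. The shCTR part of the other shared regions had a median masked share of 27.8%, against 29.6% in all 2850 spreading regions. How reads that map to several places were treated is not given in the sources used here.

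Spreading regions were found on every autosome at similar rates. The share of shared regions that spread ran from 8.96% on chromosome 16 (7.22 to 11.1) to 12.3% on chromosome 13 (10.6 to 14.1). Per 10 Mb there were between 7.74 on chromosome 16 and 15.3 on chromosome 17. Of the 2220 windows of 1 Mb that held a shared region, 1321 held a spreading one and 97 held 5 or more. After a spreading region the next shared region spread in 13.6% of cases, against 10.5% after any other shared region, and the median gap between a spreading region and the nearest other one was 160400 bp. They lay near very broad domains about as often as the other shared regions did: 60 (2.11%) lay within 10 kb of a shared region of 20 kb or more, against 2.35% of the other shared regions.

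The densest 1 Mb window was chr17:48000001-49000000, with 11 spreading regions among 43 shared ones. It holds Trem1 and Trem2, which code for receptors of myeloid cells, and intergenic DNA between Unc5cl and Lrfn2 that lies up to 212500 bp from the nearest coding start. The region at Trem1 covered 1200 and 2400 bp in shCTR and 6400 and 6000 bp in shPHF8, and one in the stretch near Lrfn2, chr17:48868401-48881400, covered 4000 and 2600 bp against 8400 and 13000 bp. In chr2:168000001-169000000, 10 of 42 shared regions spread, among them an exon region of Nfatc2, a calcium-regulated transcription factor, with 2400 and 3200 bp in shCTR and 8600 and 6000 bp in shPHF8. In chr4:145000001-146000000, 10 of 21 shared regions spread. This window lies among zinc finger genes such as Zfp990 and holds the tumour necrosis factor receptor genes Tnfrsf1b and Tnfrsf8, and the region in Tnfrsf8 covered 4400 and 600 bp in shCTR and 12800 and 12600 bp in shPHF8. The 2 smallest regions of that window, of 400 bp in each shCTR and 600 bp in each shPHF8 library, met the rule by a single window.

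Of 20807 protein-coding genes on the autosomes, 1044 (5.02%) were overlapped by a spreading region, and 145 held 2 or more. Long genes were hit more often, with a median length of 102 kb for the genes overlapped and 17.6 kb for all. Cdh13 held 10 spreading regions among its 33 shared ones, Tmem132d 7 of 25, the tumour suppressor Wwox 7 of 24, Asic2, which codes for an acid-sensing channel, 6 of 23, and Anks1b, which codes for a postsynaptic protein, 6 of 26. Fgfr2, in an annotation that gives it 2961 kb, held 8 of 67 (11.9%), and Gm20388 held 7 of 94 (7.45%). Over all shared regions the share that spread was 10.9%. The genes named here were picked for their many spreading regions, so their shares are a description. In Ano2, Dclk1, which codes for a doublecortin-like kinase of migrating neurons, and Galnt17, 5 of 9, 5 of 11 and 5 of 10 shared regions spread.

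At start sites, 123 coding genes had a start inside a spreading region. In 48 of them the start was covered in all 4 libraries already, and in 25 (0.12% of coding genes) a start was covered in both shPHF8 libraries and in neither shCTR library. None of the 25 is a gene of serine synthesis, but at 0.12% none would be expected among so few genes. Ordered by ratio, the first was Gm21188, with 800 and 1600 bp in shCTR and 5200 and 6000 bp in shPHF8. Trem2, the lipid-sensing receptor of microglia, was next, and chr17:48345401-48358200 covered 2600 and 1600 bp in shCTR and 12200 and 8400 bp in shPHF8, a ratio of 3.23. In this region 4200 of 4400 added bp lay on the left, over the Trem2 start, while the shCTR peaks lay downstream of it.

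At Dmkn, a gene of secreted skin proteins, chr7:30763401-30780200 covered 4400 and 4000 bp in shCTR and 13400 and 16200 bp in shPHF8. Trem1 had a ratio of 2.5 and its start lay inward, in the gap between the 2 shCTR peaks. Also newly covered were the starts of Scgb1b3, a secretoglobin gene, with 2000 and 2000 bp in shCTR and 5200 and 5800 bp in shPHF8, and Cldn13, a claudin gene, with 1200 and 2200 bp against 4400 and 5600 bp. Cdc34b, which codes for a ubiquitin-conjugating enzyme, covered 2000 and 1600 bp against 7600 and 5200 bp, and Pld5, of the phospholipase D family, covered 1800 and 3600 bp against 9200 and 8400 bp. In each of these the shPHF8 libraries lay above the shCTR libraries, as the rule requires, and the ratio was 2.00 or more.

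Of the other genes in this order, the region at Qprt, which makes an NAD precursor from quinolinate, covered 1800 and 2200 bp in shCTR and 6400 and 3800 bp in shPHF8. The one at Oxct2b, a ketone body enzyme gene of germ cells that overlaps Bmp8b, covered 1000 and 1200 bp against 2200 and 2400 bp. Ripor2, a RhoA inhibitor gene, covered 2400 and 2600 bp against 6200 and 5000 bp, and Rab44, of the small GTPases, covered 1000 and 1400 bp against 5400 and 2400 bp. Gm3839, Gm17542 and Ccdc185 had ratios of 2.81, 2.25 and 2.15. The other 10 genes, from Mx1 at 1.69 to Dnaja4 at 1.5, were Mx1, Adcy4, Zfp872, Pcdhb6, Ugt1a2, Sirt5, Nrbp2, Henmt1, Ugt1a5 and Dnaja4.

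Gene lists were read against the 5.02% of all coding genes, and against 16.6% of the coding genes that held any shared region. Among neurogenesis and axon guidance genes 3 of 39 (7.69%) were overlapped, which is 15.8% of the 19 that held a shared region. These were Slit1, a secreted repellent, with 3000 and 3000 bp in shCTR and 7200 and 6200 bp in shPHF8, Slit3, with 4800 and 4400 bp against 7200 and 9000 bp, and the proneural factor gene Neurog2. At Neurog2, chr3:127633801-127649000 covered 6200 and 6400 bp in shCTR and 14400 and 9800 bp in shPHF8, a ratio of 1.53, and its start was not newly covered. Among synapse and channel genes, which are long (median 491 kb), 4 of 39 (10.3%) were overlapped, which is 21.1% of the 19 with a shared region. Cacna1c, a calcium channel gene, had the highest ratio of this list, at 3.71, with 1200 and 1400 bp in shCTR and 5400 and 5200 bp in shPHF8. The glutamate receptor genes Gria1 and Grin2b had ratios of 2.07 and 1.60, and the adhesion gene Cntn5 had 1.64.

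Of the amino acid and one-carbon metabolism genes, 2 of 40 (5.00%) were overlapped, which is 14.3% of the 14 with a shared region. Glud1, which codes for glutamate dehydrogenase, covered 1800 and 3200 bp in shCTR and 5800 bp in both shPHF8 libraries, and Shmt2, the mitochondrial enzyme that splits serine into glycine and a one-carbon unit, covered 1600 and 2000 bp against 3200 and 3000 bp, which put it exactly at the threshold of 1.5. Of the germline genes, 3 of 38 (7.89%) were overlapped, which is above 5.02%, but these are 11.1% of the 27 with a shared region, which is below 16.6%. They were the transcription factor gene Sohlh2, the piRNA pathway gene Tdrd1 and the kinase gene Stk31, with ratios of 2.44, 2.22 and 2.00. None of 35 genes of the heterochromatin machinery was overlapped, and 9 held a shared region. At 5.02% or 16.6%, few or none would be expected among so few genes.

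Zinc finger genes were overlapped in 27 of 415 cases (6.51%), by 29 spreading regions, and these genes were 13.4% of the 202 that held a shared region. The first share is above 5.02% and the second below 16.6%. The highest ratio among them was at Zfp764, where 1600 bp in both shCTR libraries stood against 7000 bp in both shPHF8 libraries, and Zfp985, Zfp326 and Zfp454 followed with 2.67, 2.43 and 2.23. Olfactory receptor genes were overlapped in 3 of 1128 cases (0.266%) and vomeronasal receptor genes in 2 of 327 (0.612%), and only 26 and 9 genes of these families held any shared region, of which 11.5 and 22.2% were overlapped. Olfr543 covered 1200 and 1200 bp in shCTR and 5200 and 3200 bp in shPHF8, and Vmn1r42 and Vmn1r43 shared 1 region. For protocadherins 33 of 67 genes (49.3%, and 67.3% of the 49 with a shared region) were overlapped, but by only 5 regions, because their annotated transcripts overlap one another. At Pcdhb14 the region covered 1800 and 1200 bp in shCTR and 3600 and 3800 bp in shPHF8. Serpins were overlapped in 2 of 60 cases (3.33%, and of 7 with a shared region 28.6%), Serpina3j and Serpina16. Cytochrome P450 genes were overlapped in 4 of 100 (4.00%, and of 23 with a shared region 17.4%), among them Cyp46a1, the brain enzyme of cholesterol clearance, and the aromatase gene Cyp19a1, with ratios of 1.80 and 1.70.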

How the data were processed

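H3K9me3 ChIP-seq peak lists of 2 shCTR and 2 shPHF8 libraries were used, and the inputs were not. The lists were deposited by the authors as peak positions (starts, ends and peak names), with no counts, signal or depth. The study's methods name SOAPaligner/SOAP2 for alignment to mm10 and SICER2 for broad peaks, whereas the submitters' processing notes name Bowtie2 2.3.5.1, SAMtools 1.9 and deepTools. The window, gap, threshold and use of the input in calling were not given in the sources used here.

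Starts were read as 0-based and ends as inclusive, so that all widths were multiples of 200 bp, and positions are given 1-based. Spreading regions were found as stated above, without adjustment for depth. Annotation was GENCODE M21 basic and sequence was RefSeq GRCm38.p6, with soft-masking as given there. Python 3.11.15, numpy 2.4.6, pandas 2.3.3, scipy 1.17.1 and matplotlib 3.10.9 were used, and the merging was tested on simulated data against bedtools 2.31.1. With 2 libraries against 2, the smallest exact permutation p is 0.333, so no condition test was run.

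The regions, gene lists and alternatives were chosen with earlier results of these data known. Named were the 8 highest ratios, the 8 largest gaps, the 15 highest ratios at newly covered starts, 3 regions on each side of the threshold, up to 4 genes per list and the 3 densest windows. Some items that this rule names are not reported here. Genes with several spreading regions, and a few regions of these windows, were named after their values were seen. Alternatives changed the ratio, width limit, merging, scaling, chromosomes, coordinates, libraries and start sites.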

Additional observations from a re-analysis of the deposited data

How the results depend on the processing

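Of 16 alternatives, 8 kept the number of spreading regions within 1.5 times of 2850. It was 5438 with a laxer ratio and 972 with a ratio of 2, 976 with covered lengths scaled to 1 common total (737 met the opposite rule) and 8633 with the ratio of condition means. Leaving out 1 library gave between 4598 (shPHF8 replicate 1) and 8152 (shPHF8 replicate 2), and 7084 and 7146 without shCTR replicates 1 and 2. The genes overlapped, 1044, became 1809, 384, 386 and 2609 under the first 4 of these settings and 1583 to 2535 with 1 library left out. The share near a coding start, 6.00%, was 9.23% within 3 kb and 16.6% for all gene types, and 5.05 to 5.91% with 1 library left out. The masked share of added bases, 26.6%, was 25.2% with condition means and otherwise stayed between 25.6 and 27.1%. The inward share of added bases, 15%, was 17.2% with the laxer ratio, 12.2% with a ratio of 2, 12.5% after scaling, 7.94% with a width limit of 10000 bp, 18.8% without one, 17.2% with peaks within 1000 bp merged, 19.1% with condition means and 8.94 to 11.2% with 1 library left out. With the replicate number as a block, each shPHF8 library set against the shCTR library of its number, 4164 regions spread and 16.1% of the added bases were inward. The numbers did not pair the libraries (correlation of their deviations over 26200 shared regions, -0.02). The lists limit all values to called width in steps of 200 bp, and depth is unknown from them.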
